A study of Mus musculus with 18 samples.

Results

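Delta cells and beta cells sorted from mouse islets that had been kept with interferon gamma (IFNγ) were compared with each other, to describe which cell identity genes separated them in the treated state and at which absolute levels they held the genes that IFNγ induces. The comparison took the 3 libraries of IFNγ-treated delta cells and the 3 libraries of IFNγ-treated beta cells, 6 of the 18 libraries of the series, by their labelled cell type and treatment and by no measured value. Islets of 12-week-old male C57BL/6 mice (the labels give C57BL/6 and the methods C57BL/6JRj) spent 20 h in medium with IFNγ at 5 ng/mL or in plain medium. They were then broken up, and a cell sorter kept cells that carried Epcam and lacked CD45, TER119 and CD31. Of these, delta cells were the CD24-high fraction. The CD24-low cells that stained for CD71 were the beta cells, and those without CD71 the alpha cells, used here only to choose the induced genes. The 4 groups used were IFNγ-treated delta, IFNγ-treated beta, control delta and control beta cells, with 3 libraries each. All groups shared the strain and the culture. The file name of control beta library 3 names papain, while CD71 stands in the names of its fellow beta libraries, and whether its cells were dissociated or sorted differently is not given, which bears on every control value. Since whole islets were treated, the sorted cells had met IFNγ beside the other cells of the islet. The study describes each n as an independent biological sample.

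Beta cells make and release insulin when glucose rises, and delta cells release somatostatin, which restrains insulin and glucagon secretion from their neighbours in the same islet. IFNγ comes from T cells and natural killer cells. Its receptor, built from Ifngr1 and Ifngr2, activates the kinases JAK1 and JAK2, and the signal reaches target promoters at the gamma-activated site (GAS). Among the first targets is Irf1, a transcription factor that binds the interferon-stimulated response element (ISRE) of a second wave of genes. These include antigen presentation genes, interferon-inducible GTPases and chemokines, which are known from islets attacked by immune cells in type 1 diabetes.

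Stretches upstream of the RefSeq starts of 5 genes whose levels are described below are shown. Those of Gbp2, Irf1 and Cxcl10 hold elements named above, and those of Sst and H2-Aa another element, spelled out below. The sequences are those of RefSeq on GRCm38.p6 and run 5′ to 3′ on the strand of the gene. Capitals mark the match to a GAS (TTCNNNGAA), an ISRE (GAAA and GAAA with any 2 bases between them, or on the other strand TTTC and TTTC likewise) or a cyclic AMP response element (CRE, TGACGTCA). The Sst stretch is chr16:23890874-23890903 on the minus strand, bases -59 to -30 from the RefSeq start, with its CRE starting at -48. The Gbp2 stretch is chr3:142620594-142620623 on the plus strand, bases -69 to -40, with an ISRE starting at -59. By the gene spans printed below, which start further upstream, the Sst stretch and the ISRE of Gbp2 lie within the gene. The windows of Irf1 (chr11:53769764-53770013, plus strand, the first of 2 start sites), Cxcl10 (chr5:92348890-92349139, minus strand) and H2-Aa (chr17:34287824-34288073, minus strand) are the 250 bases before the start. The GAS of Irf1 starts at -90, the ISRE of Cxcl10 at -213 and the CRE of H2-Aa at -74.
Sst: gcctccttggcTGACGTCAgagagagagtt
Gbp2: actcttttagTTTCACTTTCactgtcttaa
Irf1: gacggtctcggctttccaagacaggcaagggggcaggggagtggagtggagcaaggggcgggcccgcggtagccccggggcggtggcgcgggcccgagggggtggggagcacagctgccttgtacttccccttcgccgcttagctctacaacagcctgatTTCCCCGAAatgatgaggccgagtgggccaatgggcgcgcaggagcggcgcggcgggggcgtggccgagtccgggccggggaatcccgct
Cxcl10: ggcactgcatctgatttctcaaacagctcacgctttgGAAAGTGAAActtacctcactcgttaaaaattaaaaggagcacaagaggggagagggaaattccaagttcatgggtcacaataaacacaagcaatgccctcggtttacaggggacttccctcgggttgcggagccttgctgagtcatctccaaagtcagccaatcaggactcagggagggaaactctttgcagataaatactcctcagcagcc
H2-Aa: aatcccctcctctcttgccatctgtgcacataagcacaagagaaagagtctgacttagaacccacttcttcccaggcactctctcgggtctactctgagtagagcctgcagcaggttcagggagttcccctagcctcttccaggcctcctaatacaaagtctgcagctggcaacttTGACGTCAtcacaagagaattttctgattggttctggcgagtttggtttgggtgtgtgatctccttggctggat

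Over the 250 bases before the start of 32851 RefSeq promoters, searched on both strands, a GAS was found in 7.02%, an ISRE in 2.98% and a CRE in 1.55%. Genes higher with IFNγ in alpha cells, the third cell type of the series, served as the set of induced genes, because they are called from a contrast other than delta against beta. That contrast came from the same fit as the rest, whose filter, scaling and spread all libraries share, and chosen anew without 1 treated delta or beta library the set held 154 to 165 genes. There were 163 of them, 0.94% of the 17338 genes tested, and 118 were matched by symbol to a RefSeq promoter. Of the 118, 19 (16.1%) held a GAS and 36 (30.5%) an ISRE, beside 7.25% and 3.14% of the 11046 matched genes among all those tested. The ISRE stood in 4 of the 30 matched induced genes that were higher in IFNγ delta cells (13.3%), in 7 of the 13 that were lower (53.8%) and in 25 of the 75 that did not pass the test (33.3%). The Sst window held an ISRE match too, at -176. A match is a description of these letters and does not show that a factor binds there.

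The treated delta libraries held 6297180, 6128845 and 11531734 expected counts, and the treated beta libraries 7659135, 10171066 and 8756107. The lowest and the highest total of the whole series were both treated delta libraries. Levels are given as CPM, a gene's count scaled to a common library size after TMM normalisation. Counting intervals of fold differences and floors cover counting error only, and nothing given here says that PCR copies were removed. Intervals of log2 differences come from the fit, whose standard errors include the spread between libraries of a group. The libraries of both groups differed in more than their cell type. Ribosomal RNA took 2.55% to 7.9% of the counts in the treated delta libraries and 19.5% to 34.5% in the treated beta libraries, and the nuclear RNA Malat1 took 4.96% to 9.52% in the treated delta and 1.36% to 1.99% in the treated beta libraries. The median log2 level of the 4330 genes lowest in GC content less that of the 4330 highest, each gene centred over the libraries, was 0.428 to 0.857 in treated delta and -0.662 to -0.374 in treated beta libraries. In the alpha IFNγ libraries it was 0.992, -0.536 and 0.846, and in the alpha controls -0.458, -0.695 and -0.744. Alpha IFNγ libraries 1 and 3 thus differed from the alpha controls in the direction in which treated delta differed from treated beta libraries. Its part in the choice of induced genes was not tested beyond offsets for GC content, with which the set chosen anew held 172 genes. The file names carry dates, 9 in all, and treated delta and treated beta libraries shared none of them. Date and cell type therefore cannot be told apart between these 6 libraries alone, and the part of ribosomal RNA and GC content in the results below was not tested beyond the alternatives given with them.

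The cells carried the identity that their labels state. Sst (ENSMUSG00000004366, chr16:23889573-23890958 on GRCm38), the gene of somatostatin, had 9561, 14003 and 14819 CPM in IFNγ delta cells, against 20.61, 22.28 and 34.04 CPM in IFNγ beta cells. Ins2 (ENSMUSG00000000215, chr7:142678656-142743381), one of the mouse insulin genes, had 8.907, 10.32 and 33.43 CPM in IFNγ delta cells, against 30178, 29595 and 17515 CPM in IFNγ beta cells. For both hormones every library of one group lay far from every library of the other. Cd24a, which encodes the antigen that the sort used, had 871.2, 615.4 and 999.3 CPM in IFNγ delta and 2.487, 2.963 and 3.963 CPM in IFNγ beta cells, which the gate itself can set. Tfrc, which encodes the CD71 used in the sort, had 157.4, 79.11 and 140.9 CPM in IFNγ delta and 97.71, 145.2 and 127.6 CPM in IFNγ beta cells, which overlapped. Ptprc, the gene of CD45, had 3 counts in all over the treated delta libraries and 0 over the treated beta libraries.

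Markers of other cells were summed per library. In bulk samples, fewer cells of a type and less RNA per cell cannot be told apart, and this holds for every level given here. The 24 beta identity genes summed to 3061 to 6781 CPM in IFNγ delta and to 48459 to 62826 CPM in IFNγ beta cells, and most of the delta sum was Iapp. The 16 delta identity genes summed to 12796 to 19102 CPM in IFNγ delta and to 351 to 395.3 CPM in IFNγ beta cells. The 39 acinar genes summed to 801.3 to 3357 CPM in IFNγ delta cells, with 4 of them at 0, and to 36.86 to 298.2 CPM in IFNγ beta cells, with 5 at 0. The 18 immune genes stayed between 2.505 and 5.478 CPM in IFNγ delta cells, with 7 at 0, and between 4.03 and 6.218 CPM in IFNγ beta cells, with 14 at 0. Alpha identity genes did not stand apart as a sum, at 3943 to 6758 CPM in IFNγ delta and 3618 to 4781 CPM in IFNγ beta cells. Their leading gene Gcg, which encodes glucagon, had 43, 44.72 and 648.9 CPM in IFNγ delta and 906.7, 1908 and 1234 CPM in IFNγ beta cells. Delta library 3 thus stood apart from delta libraries 1 and 2. The difference in Gcg missed the threshold (log2 fold change -2.46, SE 1.12, edgeR adjusted p = 0.0939) and passed it without that library at a log2 fold change of -4.95 (adjusted p = 0.00698, edgeR), or without control delta library 3 (adjusted p = 0.0491, edgeR). Of 15 alpha identity genes tested 7 were higher in IFNγ delta cells and 3 lower, and the 3 became 6 without delta library 3.

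Of 17338 genes tested with edgeR's quasi-likelihood test, 3195 (18.4%) were higher in IFNγ delta than in IFNγ beta cells and 3114 (18%) were lower, at a Benjamini-Hochberg adjusted p under 0.05, so that 36.4% differed in either direction. The libraries of both treated groups did not overlap in 8685 of the 17338 genes, and in 87 of the 163 induced genes. Statements of no overlap in single genes are to be read beside these counts. Between the control libraries of the same cell types 3560 genes (20.5%) differed. In a fit with the date as a fixed effect the counts were 660 higher and 464 lower. That fit links both groups only through dates they share with other libraries, and of its calls 631 and 412 were also called without the date, none in the other direction. Counts of single gene lists in treated cells below are to be read against the 18.4% higher and 18% lower over all genes. Antiviral genes, with 11 of 61 tested higher and 8 lower, exceeded neither share. Endocrine transcription factors (4 and 4 of 15), exocytosis (7 and 7 of 24) and receptors (10 and 9 of 27) lay above both shares. Cell death genes (7 and 4 of 25) lay above the first only. As these lists divided in both directions, no lean to one group is read from their counts. Counts in control cells are to be read against 1980 genes higher in control delta and 1580 lower, of 17338. Those with the date fitted are to be read against the 660 higher and 464 lower.

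Somatostatin cell genes were led by Hhex, the homeobox factor that delta cells need, with 339, 258.2 and 256.9 CPM in IFNγ delta cells, against 0, 0.4741 and 0 CPM in IFNγ beta cells (edgeR log2 fold change 10.55, SE 0.55, adjusted p = 1.36e-09). Ghsr, the ghrelin receptor, had 137.9, 114.7 and 106.9 CPM in IFNγ delta and 0.533, 0.1185 and 0.2331 CPM in IFNγ beta cells. Rbp4, a retinol carrier, had 317.3, 329.4 and 567.2 CPM in IFNγ delta and 6.928, 6.519 and 4.662 CPM in IFNγ beta cells. No beta library came near a delta library in these 3 genes. Ptprz1, a receptor phosphatase, was 4148-fold higher by summed counts (95% counting interval 1148 to 34257, exact). Spock3, an extracellular proteoglycan, had 0 counts in IFNγ beta cells and was at least 224-fold higher in IFNγ delta cells, taking a floor of 3 counts over the group. Of the 14 delta identity genes tested, 11 were higher in IFNγ delta cells and 0 lower, with a median log2 difference of 4.71, beside 0.02 over all genes tested. In control cells 12 were higher and 0 lower.

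Beta identity genes lay at the opposite end. Ins1 had 4.871, 3.057 and 21.63 CPM in IFNγ delta cells, against 10858, 11674 and 11328 CPM in IFNγ beta cells (edgeR log2 fold change -10.12, SE 1.06, adjusted p = 1.05e-06). Mafa, a transcription factor of mature beta cells, had 0.4175, 0.2548 and 0 CPM in IFNγ delta and 187.2, 204.5 and 232.1 CPM in IFNγ beta cells. Ucn3, the peptide by which beta cells drive somatostatin release, had 1 count in all over the treated delta libraries and was 5039-fold lower there by summed counts (95% counting interval 904 to 199063, exact). The groups were far apart in each of these genes. Of 23 beta identity genes tested, 21 were lower in IFNγ delta cells and 1 higher, with a median log2 difference of -5.86. The 1 that was higher was Dlk1, an imprinted Notch-related membrane protein, with 13.08, 15.29 and 22.54 CPM in IFNγ delta and 7.994, 3.556 and 1.748 CPM in IFNγ beta cells. The gene that did not pass was Pdx1, a factor that beta and delta cells both use, with 50.66, 44.59 and 48.84 CPM in IFNγ delta and 109.6, 109.2 and 76.58 CPM in IFNγ beta cells (edgeR log2 fold change -1.03, SE 0.44, adjusted p = 0.0734). Iapp, the gene of islet amyloid polypeptide, was abundant in both, at 3809, 2780 and 6450 CPM in IFNγ delta and 12267, 15189 and 14049 CPM in IFNγ beta cells (edgeR log2 fold change -1.67, SE 0.54, adjusted p = 0.0216), a call that was lost without delta library 1, delta library 2 or beta library 2.

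**Figure D1:**
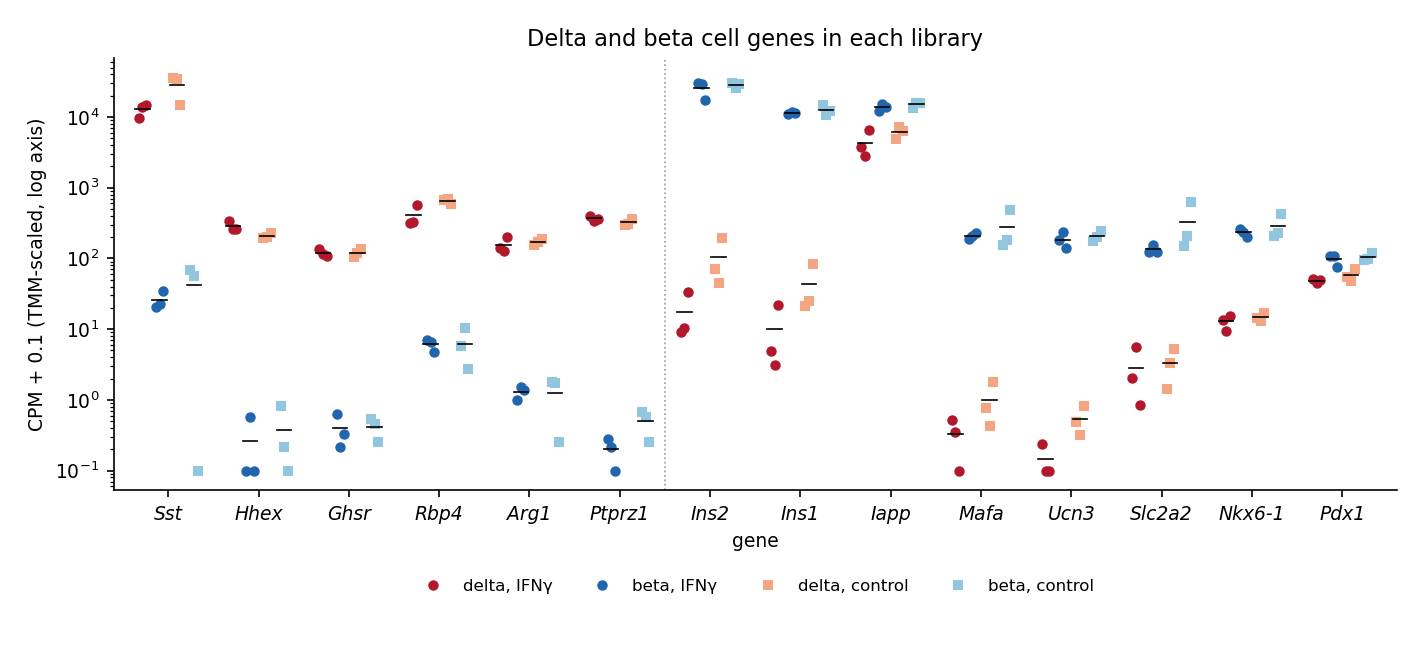
CPM plus 0.1 on a log axis of 6 delta and 8 beta identity genes in single libraries. Circles are IFNγ delta and IFNγ beta libraries, squares control delta and control beta libraries, and bars group means. In the 6 delta genes the 3 IFNγ delta libraries lie above the 3 IFNγ beta libraries, and in the 8 beta genes below them, with Iapp and Pdx1 closest.

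The transcription factors listed as pan-endocrine divided between the groups, 4 of 15 tested being higher in IFNγ delta cells and 4 lower, with a median of 0.13. The values below show that not all of them were shared by both cells. Neurog3, the factor that commits cells to the endocrine lineage, had 34.79, 42.29 and 34.42 CPM in IFNγ delta cells, against 0.3553, 0.4741 and 1.399 CPM in IFNγ beta cells. Isl1, an islet homeobox factor, had 291.4, 244.6 and 246.7 CPM in IFNγ delta and 102.3, 125.5 and 114.8 CPM in IFNγ beta cells. Both were higher in every delta library than in any beta library. Mnx1, a homeobox factor of beta cells, had 0 counts in IFNγ delta cells and was at least 101-fold lower there (floor of 3 counts over the group). Nkx2-2, a homeobox repressor, was lower at 28.11, 35.42 and 30.89 CPM in IFNγ delta and 124.7, 132.4 and 129 CPM in IFNγ beta cells.

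Of 27 glucose sensing and metabolism genes tested, 9 were higher in IFNγ delta cells and 13 lower. The glucose transporter genes went opposite ways. Slc2a2 had 1.948, 5.478 and 0.7375 CPM in IFNγ delta and 123.6, 155 and 122.7 CPM in IFNγ beta cells. Slc2a3 had 11.69, 10.32 and 8.359 CPM in IFNγ delta and 0.8882, 1.304 and 1.166 CPM in IFNγ beta cells. Pcx, the pyruvate carboxylase of the beta cell, was lower by a log2 fold change of -4.9 (SE 0.39, adjusted p = 3.79e-08, edgeR). The calcium channel gene Cacna1h was higher, with 142.2, 166.2 and 87.44 CPM in IFNγ delta and 0.8882, 0.5927 and 1.865 CPM in IFNγ beta cells. Granule cargo and prohormone processing genes were higher in 1 of 17 and lower in 8. The granins divided, Chgb having 4074, 2565 and 5187 CPM in IFNγ delta and 2221, 1857 and 1316 CPM in IFNγ beta cells, while Chga had 889.6, 1132 and 1365 CPM in IFNγ delta and 4582, 3488 and 3744 CPM in IFNγ beta cells. In the exocytosis machinery, 7 of 24 genes were higher in IFNγ delta cells and 7 lower. Cadps, a priming factor of dense-core vesicles, had 3.758, 7.389 and 10.08 CPM in IFNγ delta and 216.2, 208.9 and 214.1 CPM in IFNγ beta cells. Its relative Cadps2 had 39.25, 32.87 and 43.92 CPM in IFNγ delta and 21.32, 26.31 and 20.75 CPM in IFNγ beta cells, the opposite order. The 7 lower exocytosis genes fell to 4 without delta library 2, delta library 3, beta library 1 or beta library 2.

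Receptors for islet and neural signals also differed in both directions, 10 of 27 tested being higher in IFNγ delta cells and 9 lower. Gria2, a subunit of the AMPA glutamate receptor, had 145.6, 153.8 and 131.1 CPM in IFNγ delta cells, against 7.106, 6.993 and 11.19 CPM in IFNγ beta cells. Sstr1, a somatostatin receptor, had 16.98, 19.62 and 9.916 CPM in IFNγ delta and 0.533, 0.5927 and 0.1166 CPM in IFNγ beta cells. Glp1r, the receptor of the incretin GLP-1, had 82.11, 97.2 and 65.72 CPM in IFNγ delta and 874, 873.4 and 826.1 CPM in IFNγ beta cells. Glp1r was thus detected in both cells, with no overlap between the groups. Galr1, a galanin receptor, was 494-fold lower in IFNγ delta cells by summed counts, with 2 counts there (95% counting interval 136 to 4089, exact).

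Among the genes of type 1 diabetes autoantigens, 9 of 13 were lower in IFNγ delta cells and 1 was higher, with a median log2 difference of -1.67. Slc30a8, the zinc transporter of insulin granules, had 2.227, 3.44 and 5.9 CPM in IFNγ delta and 287.4, 312.4 and 267.2 CPM in IFNγ beta cells. G6pc2, a glucose-6-phosphatase of beta cells, had 2.644, 0.1274 and 6.474 CPM in IFNγ delta and 553.7, 838.8 and 827.2 CPM in IFNγ beta cells. The forms of glutamate decarboxylase went opposite ways. Gad1 had 0, 0 and 0.4097 CPM in IFNγ delta and 54.54, 56.89 and 56.07 CPM in IFNγ beta cells. Gad2, the 1 higher gene, had 2.923, 1.019 and 1.229 CPM in IFNγ delta cells and 0 counts in IFNγ beta cells, at least 12.2-fold higher with the floor of 3 counts.

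The differences between treated cells followed those between control cells. Of the 6309 genes called in treated cells, 3039 (48.2%) were called the same way between control delta and control beta cells, 0 the other way, and 97.6% had the same sign. The 3039 made up 85.4% of the 3560 called in control cells. Across 12109 genes with at least 5 CPM in a treated group, the control and the treated log2 difference had a Pearson r of 0.908. This is a description across genes, which are not independent replicates, and the fitted values of genes with 0 counts in a group depend on the prior count of the fit. One date held both a delta and a beta control library, delta control 3 and beta control 2. In that pair, genes higher in IFNγ delta cells had a median log2 difference of 1.13 with 95.9% of them positive, and genes lower in IFNγ delta cells a median of -0.92 with 2.7% positive, beside 0.02 over all genes. The pair is 1 library against 1 and gives no test. Its libraries also differed in the direction in which the treated groups did. Ribosomal RNA took 6.63% in delta control 3 and 15.9% in beta control 2, and Malat1 4.23% and 1.74%. The difference between genes low and high in GC content was 0.836 and -0.28, and the part of these in the pair was not tested.

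**Figure D2:**
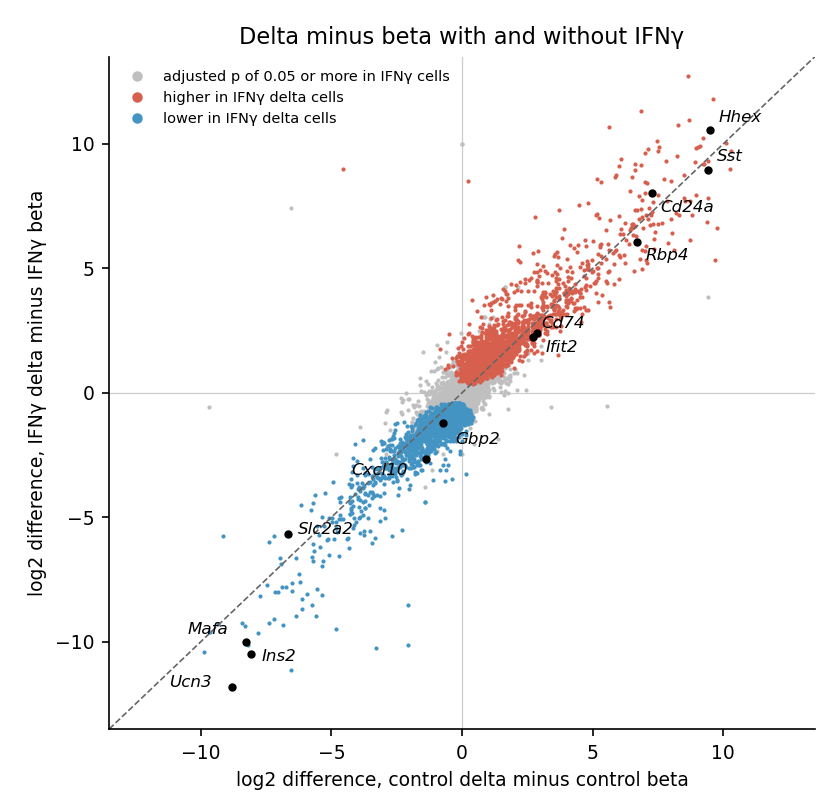
Log2 difference of delta minus beta cells in the IFNγ state (vertical axis) against the same difference in the control state (horizontal axis), for genes with at least 5 CPM in a treated group. Colours mark genes higher or lower in IFNγ delta cells, and the points follow the diagonal with a Pearson r of 0.908 over 12109 genes.

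No gene differed between delta and beta cells in its response to IFNγ, 0 of 17338 (0%) in edgeR at an adjusted p under 0.05, where the lowest adjusted p was 0.681 and 822 genes had an unadjusted p under 0.05. DESeq2 called 4 genes, limma-voom 0, and a fit without the low-count filter 152. The delta and beta responses rest on separate control and treated libraries, 3 of each. What follows describes levels in the treated state, and a p that misses the threshold does not show that the responses were alike.

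The 163 induced genes summed to overlapping totals in both cells. They held 23498, 30720 and 26933 CPM in IFNγ delta cells, a mean of 27051 ± 3612 CPM, and 21005, 27482 and 27385 CPM in IFNγ beta cells, a mean of 25291 ± 3712 CPM (SD, n = 3 each). The ratio of the means, delta over beta, was 1.07, and it was between 0.986 and 1.14 when each treated library was left out in turn. The same genes held 3536 ± 274.5 CPM in control delta and 3247 ± 96.82 CPM in control beta cells (SD, n = 3 each). In edgeR, 135 of the 163 were higher with IFNγ in delta cells and 129 in beta cells, 125 of them in both. The median gene had 62.89 CPM in IFNγ delta and 46.31 CPM in IFNγ beta cells.

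Single induced genes did differ. In IFNγ delta cells 46 of the 163 (28.2%) were higher than in IFNγ beta cells and 16 (9.82%) were lower, 38% in either direction, which is close to the 36.4% over all genes tested. Their median log2 difference was 0.31, with quartiles of -0.2 and 0.85, beside 0.02 over all genes. In 115 genes the log2 difference was under 1 in size, and in 54 its whole 95% interval was. Between control cells the same set had a median of 0.31 too, with 31 genes higher in control delta and 7 lower, and the difference of responses had a median of -0.03. Of the 46 higher genes 36 were higher with IFNγ in delta cells and 28 in beta cells, and of the 16 lower genes 13 and 15 in the same order of cells. The number of lower genes was 9 without delta library 1 and 10 without beta library 2. In all, 3 induced genes were higher and 7 lower once the date was fitted. The median GC content was 45.6% in the 46 higher and 49.9% in the 16 lower genes, against 49.4% over all genes tested, in the direction in which the libraries differed. Its part was not tested beyond offsets for GC content, with which 44 of the 163 were higher and 21 lower. In the same-date pair of control libraries the 46 higher genes had a median log2 difference of 1.14 and the 16 lower genes of -0.69.

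Among the 48 induced genes with at least 100 CPM in both groups, 3 were higher in IFNγ delta cells, 3 lower and the median was -0.07. Irf1 had 132.2, 236.2 and 171.5 CPM in IFNγ delta and 156.7, 175.9 and 237 CPM in IFNγ beta cells, and the 95% interval of its log2 difference ran from -0.52 to 0.36. The libraries of both groups overlapped. Irgm1, a GTPase that acts against intracellular pathogens, had 427.4, 562.7 and 589.2 CPM in IFNγ delta and 430.8, 638.3 and 610.2 CPM in IFNγ beta cells. Cd274, the gene of the inhibitory ligand PD-L1, had 195.1, 391.9 and 242.4 CPM in IFNγ delta and 271.1, 390.7 and 347.5 CPM in IFNγ beta cells, with an interval of the log2 difference from -0.84 to 0.27. Vwa5a was the exception among the 5 genes with the narrowest intervals at this level, at 212.7, 235.3 and 238.5 CPM in IFNγ delta and 125.1, 140.9 and 146.3 CPM in IFNγ beta cells, with no overlap (edgeR log2 fold change 0.74, SE 0.19, adjusted p = 0.0052). With offsets for GC content its log2 fold change was 0.31 (adjusted p = 0.126, edgeR) and with the date fitted 0.4 (adjusted p = 0.573, edgeR), so that the call was lost in both.

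**Figure D3:**
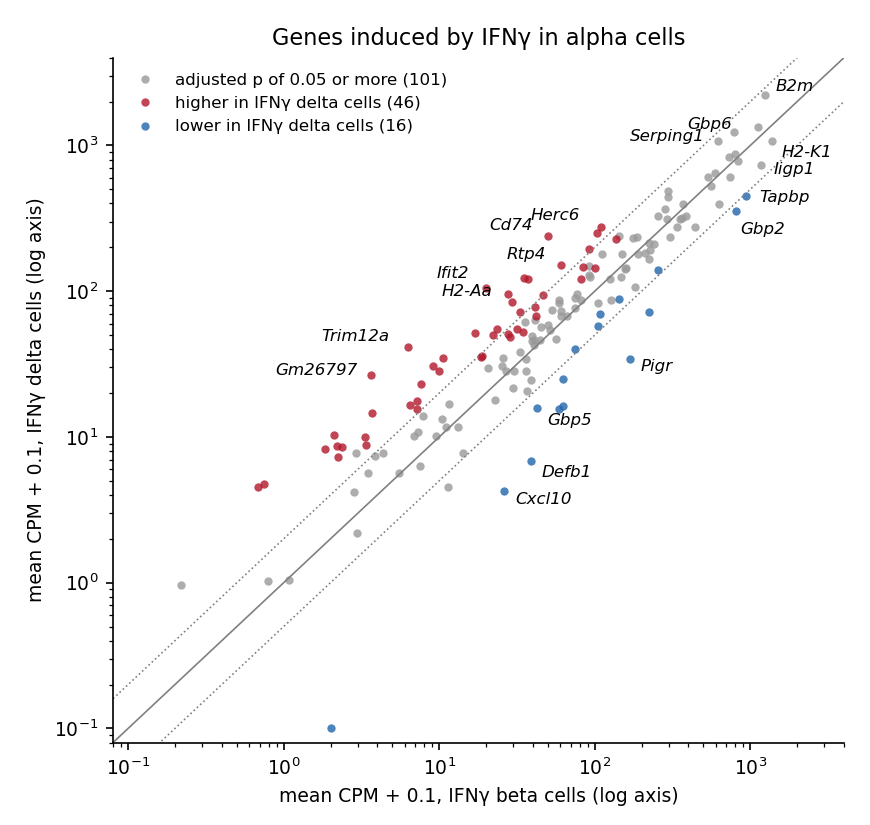
Mean CPM plus 0.1 of the 163 induced genes in IFNγ beta cells (horizontal) and IFNγ delta cells (vertical), both on log axes, with lines at equality and at 2-fold. Red points are the 46 genes higher and blue points the 16 genes lower in IFNγ delta cells, and grey points, among them most of the abundant genes, did not pass the test.

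Within each cell type, the order of induced genes by length-scaled level (TPM) was led by the same genes. B2m, the shared light chain of MHC class I, came first with 1554, 1630 and 1225 TPM in IFNγ delta cells and with 744.1, 1311 and 871.9 TPM in IFNγ beta cells. The class I heavy chain H2-K1 was next in both, with a mean of 620.2 ± 271.2 TPM in IFNγ delta and 957.1 ± 63.24 TPM in IFNγ beta cells (SD, n = 3 each). Serping1, the inhibitor of complement C1, was the third in both. In IFNγ delta cells the order went on with Ly6e, Iigp1, Tgtp2, H2-D1, Tgtp1 and Gbp6, between 248.9 and 151.2 TPM, and in IFNγ beta cells with Iigp1, Tapbp, BC023105 and H2-D1, between 295.2 and 229.2 TPM. Neighbours in these orders differed by less than the larger of their SDs, except B2m and H2-K1 and then Serping1 and Ly6e in delta cells, and H2-K1 and Serping1 in beta cells. TPM orders genes within a cell type and was not used between cell types, since genes with an effective length under 100 bases took 74.9% to 76.3% of all TPM in treated delta and 40.9% to 51.2% in treated beta libraries.

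The receptor chains had overlapping levels. Ifngr1 had 11.69, 9.172 and 14.91 CPM in IFNγ delta and 12.44, 14.11 and 10.61 CPM in IFNγ beta cells, and Ifngr2 8.49, 8.79 and 5.736 CPM in IFNγ delta and 8.35, 9.957 and 5.245 CPM in IFNγ beta cells. The 95% intervals of their log2 differences ran from -0.52 to 0.43 in Ifngr1 and from -0.8 to 0.72 in Ifngr2. Jak2 was higher, at 125.3, 97.71 and 117.7 CPM in IFNγ delta and 61.82, 71.12 and 64.81 CPM in IFNγ beta cells (edgeR log2 fold change 0.78, SE 0.21, adjusted p = 0.00849). Stat5b, which acts in prolactin and growth hormone signalling, was lower, at 36.19, 43.44 and 26.8 CPM in IFNγ delta and 96.46, 72.07 and 74.7 CPM in IFNγ beta cells. Of 14 genes of the list 1 was higher in IFNγ delta cells and 4 were lower, and the 4 fell to 1 without delta library 1, delta library 3, beta library 1 or beta library 2. Among feedback inhibitors 5 of 16 were higher and 3 lower, and the 5 fell to 0 without delta library 1 or beta library 1. Socs1, the inhibitor of JAK kinases that IFNγ induces, had 12.39, 16.18 and 6.31 CPM in IFNγ delta and 8.883, 7.349 and 17.37 CPM in IFNγ beta cells, which overlapped. Ptpn1, a phosphatase that acts on JAK2, was lower by a log2 fold change of -1.42 (SE 0.22, adjusted p = 8.55e-05, edgeR). Of 11 interferon regulatory transcription factors tested, 1 was higher and 1 lower. Irf2, a competitor of Irf1, had 58.87, 67.9 and 63.18 CPM in IFNγ delta and 38.02, 43.74 and 42.54 CPM in IFNγ beta cells. Prdm1, which encodes the repressor Blimp-1, had 0.4175, 0.3822 and 0 CPM in IFNγ delta and 4.974, 5.689 and 6.411 CPM in IFNγ beta cells.

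Among the immune and stress lists, MHC class II genes had the highest median in IFNγ delta cells, 6 of the 7 tested being higher and 0 lower, with a median log2 difference of 1.52. Cd74 (ENSMUSG00000024610, chr18:60803848-60812652), the invariant chain that guards the class II groove, had 183.8, 305.1 and 229.3 CPM in IFNγ delta cells, against 34.64, 56.78 and 58.05 CPM in IFNγ beta cells (edgeR log2 fold change 2.26, SE 0.36, adjusted p = 0.000108). H2-Aa, a class II alpha chain, had 64.16, 102.2 and 85.31 CPM in IFNγ delta and 18.65, 35.91 and 33.8 CPM in IFNγ beta cells (edgeR log2 fold change 1.5, SE 0.31, adjusted p = 0.001). H2-Eb1, a beta chain, had 20.46, 41.53 and 29.09 CPM in IFNγ delta and 7.817, 9.245 and 10.02 CPM in IFNγ beta cells. In these 3 genes and in H2-Ab1 no beta library reached a delta library. Ciita, the master activator of class II transcription, had 8.629, 48.41 and 18.36 CPM in IFNγ delta and 6.04, 5.571 and 8.043 CPM in IFNγ beta cells, and its call rested on delta library 2, without which its log2 fold change was 1.05 (adjusted p = 0.0505, edgeR). In control cells, Cd74 had 0.8588, 0.6488 and 0.519 CPM in delta and 0.1424, 0 and 0.1522 CPM in beta cells, so that most class II RNA appeared with IFNγ in both cell types. The control difference in Cd74 was of similar size but missed the threshold (log2 fold change 2.72, adjusted p = 0.0753, edgeR), and the difference between its responses missed it too (adjusted p = 0.956, edgeR). The sixth gene was H2-DMb1, named here after its values were seen, at 12.25, 17.71 and 16.23 CPM in IFNγ delta and 5.685, 8.06 and 7.46 CPM in IFNγ beta cells. The 6 fell to 3 without delta library 2 and to 0 once the date was fitted, with a median of 1.21 in that fit. Beside them Ptprc, the gene of the CD45 that the sort selected against, was at 0.4175, 0 and 0 CPM in IFNγ delta and at 0 CPM in all IFNγ beta libraries. Of the 18 immune genes 7 were at 0 in IFNγ delta and 14 in IFNγ beta cells. The part of immune cells in the class II values was not tested.

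MHC class I chains, by contrast, had a median of -0.02 over 16 genes, with 3 higher and 1 lower. In CPM, B2m had 2325, 1891 and 2426 in IFNγ delta cells and 976, 1714 and 1026 in IFNγ beta cells, a difference just short of the threshold (edgeR log2 fold change 0.84, SE 0.35, adjusted p = 0.07) although the libraries did not overlap. With limma-voom, DESeq2 and several other settings B2m passed it. H2-K1 had 970, 1259 and 1006 CPM in IFNγ delta and 1404, 1314 and 1396 CPM in IFNγ beta cells, and H2-D1 had 535.4, 678.2 and 610.1 CPM in IFNγ delta and 830.3, 673.4 and 728.6 CPM in IFNγ beta cells. Neither passed the test (adjusted p = 0.256 and 0.409, edgeR). The nonclassical chain H2-T22 was lower, at 53.03, 68.28 and 50.89 CPM in IFNγ delta and 97.53, 107.3 and 109.7 CPM in IFNγ beta cells. The 3 higher genes were H2-Q7, whose reads may be shared with its near-identical neighbour H2-Q6, and the lipid and metabolite presenters Cd1d1 and Mr1, neither of them above 10 CPM. The 3 fell to 1 without beta library 1 and to 0 once the date was fitted, and were 5 with offsets for GC content.

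Genes that load peptides on class I or make up the immunoproteasome leaned the other way, 9 of 18 being lower in IFNγ delta cells and 0 higher, with a median of -0.83. Tapbp, the gene of tapasin, had 435.9, 514.5 and 398.4 CPM in IFNγ delta cells, against 812, 860.5 and 1157 CPM in IFNγ beta cells (edgeR log2 fold change -1.07, SE 0.25, adjusted p = 0.00305). Its relative Tapbpl had 52.75, 70.83 and 63.92 CPM in IFNγ delta and 117.8, 124.2 and 121.5 CPM in IFNγ beta cells. The groups were separate in both genes. Psme3, a nuclear proteasome activator, and the constitutive proteasome subunits Psmb5 and Psmb6 were among the 9, with log2 fold changes of -0.93, -1.02 and -1.07. Neither these 3 nor Tapbpl was in the induced set. In that set Tapbp was lower, and so was Psmb9, an immunoproteasome subunit (log2 fold change -0.88, adjusted p = 0.0475, edgeR). The count of 9 therefore does not describe induced genes alone. Tap1, a peptide transporter, had 157.1, 227.8 and 117.1 CPM in IFNγ delta and 192, 209.4 and 270.8 CPM in IFNγ beta cells and did not pass (adjusted p = 0.204, edgeR), and Psmb8, an immunoproteasome subunit, had 53.86, 102.2 and 105.3 CPM in IFNγ delta and 110.5, 120.2 and 151.6 CPM in IFNγ beta cells (adjusted p = 0.119, edgeR). In control cells 1 of the 18 was lower in delta, with a median of -0.35. The 9 fell to 5 without delta library 1 and to 0 once the date was fitted, with a median of -0.6 in that fit.

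**Figure D4:**
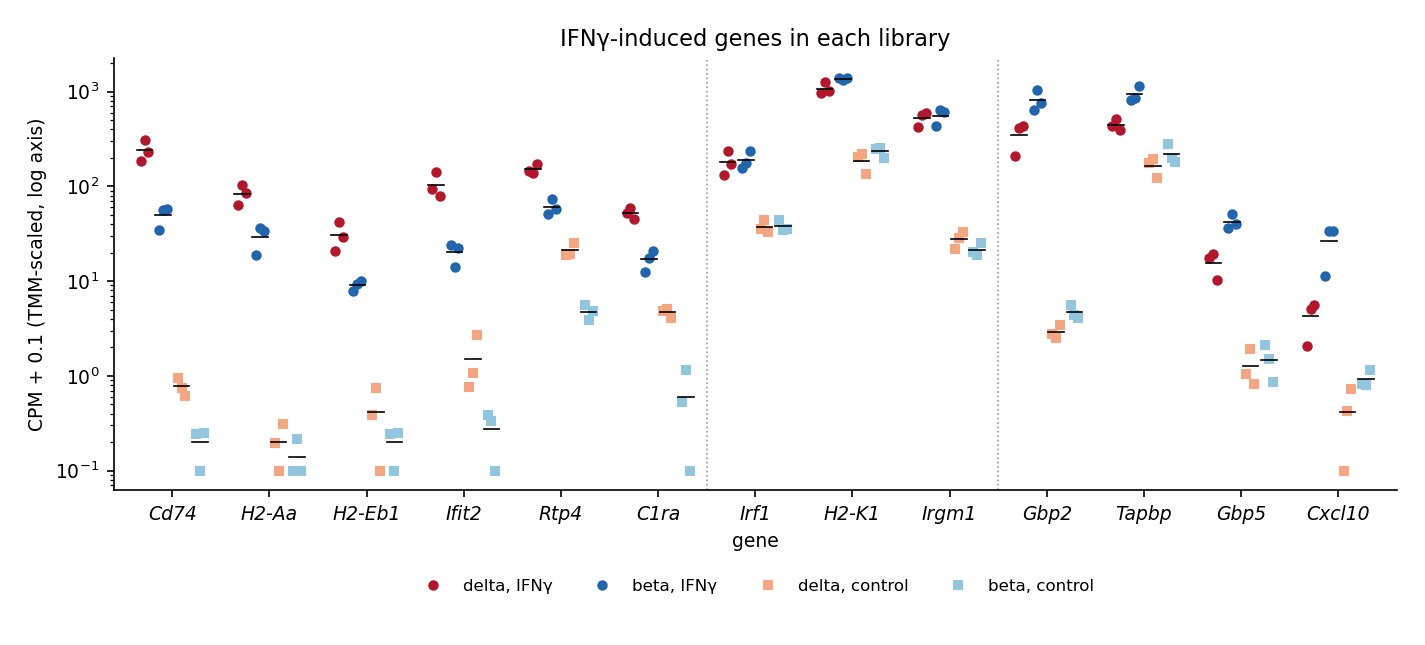
CPM plus 0.1 on a log axis of 13 genes induced by IFNγ in alpha cells, in single libraries. Circles are IFNγ delta and IFNγ beta libraries, squares control delta and control beta libraries, and bars group means. From left to right stand 6 genes higher in IFNγ delta cells, 3 that did not pass the test and 4 that were lower.

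Of 18 interferon-inducible GTPases 1 was higher in IFNγ delta cells and 3 were lower, with a median of 0.08. Iigp1, which acts on the vacuoles of intracellular parasites, had 451.1, 844.9 and 892.8 CPM in IFNγ delta and 639.4, 1321 and 1573 CPM in IFNγ beta cells and did not pass (log2 fold change -0.69, adjusted p = 0.217, edgeR). It passed with offsets for GC content, at a log2 fold change of -1.63 (adjusted p = 0.00683, edgeR), and without the low-count filter (adjusted p = 0.0195, edgeR). Igtp had 271.3, 455.8 and 462.6 CPM in IFNγ delta and 536.7, 741.5 and 610.9 CPM in IFNγ beta cells (adjusted p = 0.0645, edgeR), without overlap, and passed in 6 other settings, limma-voom and the replicate block among them. Tgtp1 and Tgtp2, near-identical neighbours whose reads the counting may have split, did not pass either. The 3 lower genes were Mx1, F830016B08Rik and Gm4841, and the higher one was Gm4951. The 3 fell to 1 without delta library 3 or beta library 2. Among guanylate-binding proteins 3 of 11 were lower and 0 higher, with a median of 0.26. That median was -0.29 with offsets for GC content, where 4 were lower. Once the date was fitted it was -0.52, with 1 lower. Gbp2 (ENSMUSG00000028270, chr3:142620602-142638008) had 209.3, 415.9 and 433.2 CPM in IFNγ delta cells, against 642.2, 1038 and 761 CPM in IFNγ beta cells (edgeR log2 fold change -1.21, SE 0.32, adjusted p = 0.00776). Gbp5 had 17.26, 19.24 and 10.24 CPM in IFNγ delta and 35.89, 51.21 and 40.1 CPM in IFNγ beta cells. Gbp2b had 0 counts in IFNγ delta cells and was at least 17.6-fold lower there, with the floor of 3 counts over the group, though reads may be shared among genes of this family. Gbp6, the most abundant of the list in delta cells, had 1258, 1352 and 1386 CPM in IFNγ delta and 875.3, 1321 and 1148 CPM in IFNγ beta cells and did not pass (adjusted p = 0.466, edgeR).

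Of 61 antiviral interferon-stimulated genes 11 were higher in IFNγ delta cells and 8 lower, with a median of 0.03, no larger shares than the 18.4% and 18% over all genes. Ifit2, which binds foreign RNA, had 94.5, 140.1 and 78.92 CPM in IFNγ delta cells, against 24.16, 13.87 and 22.03 CPM in IFNγ beta cells (edgeR log2 fold change 2.39, SE 0.34, adjusted p = 3.19e-05). Trim12a, of the Trim5 family, had 41.2, 51.09 and 31.63 CPM in IFNγ delta and 3.908, 6.045 and 8.742 CPM in IFNγ beta cells. Rtp4 had 145.4, 137.1 and 170.9 CPM in IFNγ delta and 50.99, 73.84 and 57.23 CPM in IFNγ beta cells. All 3 were higher in every delta library than in any beta library, and all 3 were higher in control delta than in control beta cells as well, with log2 fold changes of 2.87, 2.02 and 2.18. Rsad2, which encodes viperin, had 21.57, 29.94 and 23.6 CPM in IFNγ delta and 67.51, 44.09 and 75.65 CPM in IFNγ beta cells. Tor3a had 21.15, 38.47 and 33.02 CPM in IFNγ delta and 100.4, 85.58 and 68.65 CPM in IFNγ beta cells. Parp9, Parp12 and Parp14, ADP-ribosyltransferases of the interferon response, had log2 fold changes of -0.05, -0.22 and 0.12 and did not pass. The 11 fell to 6 without beta library 1 or 2 and to 7 without delta library 2. The 8 fell to 3 without delta library 1 and to 4 without delta library 3 or any 1 beta library, and once the date was fitted 2 were higher and 2 lower.

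Chemokine, cytokine and adhesion genes were low in both cells. Cxcl10 (ENSMUSG00000034855, chr5:92346638-92348889), which draws T cells through CXCR3, had 1.948, 4.968 and 5.49 CPM in IFNγ delta cells, against 11.19, 34.02 and 33.34 CPM in IFNγ beta cells (edgeR log2 fold change -2.64, SE 0.48, adjusted p = 0.000371). The groups did not overlap, and in control cells Cxcl10 had 0, 0.3244 and 0.6228 CPM in delta and 0.7122, 0.7025 and 1.065 CPM in beta cells. Cx3cl1, a membrane-bound chemokine, had 11.27, 20.64 and 7.867 CPM in IFNγ delta and 4.619, 6.045 and 3.963 CPM in IFNγ beta cells. Icam1, an adhesion molecule for leukocytes, had 13.64, 8.79 and 9.424 CPM in IFNγ delta and 0.3553, 0.9482 and 0.9325 CPM in IFNγ beta cells, and its log2 fold change of 3.75 turned to -1.21 once the date was fitted, without passing the threshold. Vcam1 had 42 counts in IFNγ delta cells and 0 in IFNγ beta cells, at least 11.6-fold higher with the floor of 3 counts. Of 9 genes tested 4 were higher and 2 lower, and the 4 fell to 2 without any 1 beta library. The second lower gene was Cxcl16, which missed the threshold in several of these fits. Once the date was fitted 0 of the 9 were higher and 2 lower, and the median was -0.48, against 1.17 without the date. Genes of endothelial cells, which also carry adhesion molecules, summed to 7.867 to 13.92 CPM in IFNγ delta and to 3.319 to 5.012 CPM in IFNγ beta cells, and their part in these values was not tested. The endothelial marker Pecam1 had 3.619, 2.675 and 2.049 CPM in IFNγ delta and 0, 0.2371 and 0.2331 CPM in IFNγ beta cells.

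Complement genes were higher in IFNγ delta cells in 6 of 13 and lower in 0, with a median of 1.08. C1ra, a protease that starts the classical pathway, had 51.77, 58.73 and 45.32 CPM in IFNγ delta and 12.44, 17.42 and 20.63 CPM in IFNγ beta cells (edgeR log2 fold change 1.62, SE 0.43, adjusted p = 0.00735). Cfi, a protease that stops complement, had 13.64, 7.516 and 18.03 CPM in IFNγ delta and 0.533, 0.2371 and 0.4662 CPM in IFNγ beta cells, and Cd46, its membrane cofactor, 45.09, 57.33 and 34.01 CPM in IFNγ delta and 7.639, 11.73 and 16.55 CPM in IFNγ beta cells. No overlap was seen in these 3. Serping1 had 1095, 1339 and 1266 CPM in IFNγ delta and 644.2, 926 and 792.7 CPM in IFNγ beta cells, next to the threshold (adjusted p = 0.0501, edgeR), and passed it in 14 other settings, among them DESeq2 and offsets for GC content. In control cells 5 of the 13 were higher in delta. The 6 fell to 3 without beta library 1. Once the date was fitted 1 complement gene was higher and 2 were lower, with a median of 0.35.

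Among immune brakes beside Cd274, 2 of 14 genes were higher in IFNγ delta cells and 1 lower. Cd200, a ligand that calms myeloid cells, had 72.79, 76.69 and 84.24 CPM in IFNγ delta and 23.98, 29.04 and 22.15 CPM in IFNγ beta cells, and Nectin2, a ligand of T cell receptors, 21.02, 24.33 and 14.34 CPM in IFNγ delta and 8.883, 7.112 and 8.043 CPM in IFNγ beta cells. Ido1, which degrades tryptophan, was lower at 0.1392, 0.637 and 0.08195 CPM in IFNγ delta and 1.599, 2.015 and 2.331 CPM in IFNγ beta cells, a low level in both. Its call was lost without delta library 1 or 3, without any 1 beta library and without several libraries of other groups.

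Cell death genes were higher in 7 of 25 and lower in 4, with a median of -0.11, beside 18.4% higher and 18% lower over all genes. Once the date was fitted 1 was higher and 0 lower. Bcl2, which blocks apoptosis, had 48.71, 44.08 and 48.1 CPM in IFNγ delta cells, against 2.665, 4.267 and 5.362 CPM in IFNγ beta cells (edgeR log2 fold change 3.49, SE 0.24, adjusted p = 8.71e-09). Its relative Bcl2l1 had 23.8, 24.08 and 20 CPM in IFNγ delta and 46.9, 31.05 and 35.32 CPM in IFNγ beta cells, the opposite order, and lost its call without beta library 1 or without delta library 1 or 3. Bax and Bak1, which open the mitochondrial membrane, were lower by log2 fold changes of -1.24 and -1.07. Casp1, the inflammasome caspase, had 0 counts in IFNγ delta cells and was at least 23.3-fold lower there with the floor of 3 counts. The control difference of Bcl2 was a log2 fold change of 4.00 (adjusted p = 4.31e-09, edgeR). The 4 lower genes fell to 2 without delta library 1 or delta library 3.

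Genes of the unfolded protein response were lower in IFNγ delta cells in 9 of 20 and higher in 0, with a median of -0.4. Trib3, a pseudokinase induced by stress, had 5.706, 7.389 and 6.556 CPM in IFNγ delta cells, against 61.47, 41.13 and 45.34 CPM in IFNγ beta cells (edgeR log2 fold change -2.91, SE 0.54, adjusted p = 0.000435). Edem1, which sends misfolded proteins to degradation, had 65.27, 66.37 and 72.77 CPM in IFNγ delta and 242.5, 229.7 and 302.1 CPM in IFNγ beta cells. Atf4, a stress transcription factor, had 133.1, 171.9 and 218.3 CPM in IFNγ delta and 381.2, 364.2 and 300.3 CPM in IFNγ beta cells. The groups did not overlap in these genes. In control cells 6 of the 20 were lower in delta, and once the date was fitted 0 of the 20 passed in treated cells. Of 18 NF-kB and oxidative stress genes 2 were higher in IFNγ delta cells and 3 lower, the lower ones led by Hmox1, a heme-degrading enzyme, at 11.41, 9.172 and 7.293 CPM in IFNγ delta and 47.97, 76.22 and 48.72 CPM in IFNγ beta cells. The 3 fell to 1 without delta library 1, delta library 2 or beta library 3, and the 2 to 1 without delta library 1 or 3 or beta library 1 or 2.

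Induced genes outside these lists held some of the largest differences. Pigr, which carries antibodies across epithelia, had 24.36, 42.42 and 36.22 CPM in IFNγ delta cells, against 170.7, 153.7 and 180.8 CPM in IFNγ beta cells (edgeR log2 fold change -2.29, SE 0.27, adjusted p = 4.27e-06), and was lower in control delta cells as well. Defb1, a defensin, had 5.985, 3.822 and 10.49 CPM in IFNγ delta and 35.53, 44.57 and 36.48 CPM in IFNγ beta cells. Tmem140 had 7.933, 24.97 and 13.11 CPM in IFNγ delta and 54.72, 52.86 and 67.96 CPM in IFNγ beta cells. None of these 3 overlapped between the groups. Timp3, an inhibitor of matrix proteases, had 15.03, 9.172 and 6.638 CPM in IFNγ delta and 1.421, 2.134 and 2.448 CPM in IFNγ beta cells. Parp3, which acts in DNA repair, had 14.06, 15.16 and 14.5 CPM in IFNγ delta and 3.375, 3.793 and 3.613 CPM in IFNγ beta cells. Tdo2, which degrades tryptophan as Ido1 does, had 7.794, 10.45 and 6.31 CPM in IFNγ delta and 2.132, 1.896 and 1.166 CPM in IFNγ beta cells, the opposite order to Ido1. These genes were chosen as induced in alpha cells. Their log2 fold changes of IFNγ minus control in delta and beta cells were 0.66 and -0.43 for Tdo2 and 0.93 and 0.17 for Timp3. They were 0.98 and 1.45 for Defb1 and 1.02 and 2.71 for Tmem140. Pigr had 3.34 and 2.62, and Parp3 3.15 and 2.54.

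Proliferation genes were lower in IFNγ delta cells in 8 of 11 and higher in 0, with a median of -2.07. Top2a, which untangles DNA before division, had 1.809, 3.949 and 1.393 CPM in IFNγ delta and 22.92, 65.67 and 13.29 CPM in IFNγ beta cells (edgeR log2 fold change -3.86, SE 1.01, adjusted p = 0.00666). The beta libraries varied among themselves, and the proliferation sum was 39.36 to 51.13 CPM in IFNγ delta and 82.88 to 260.2 CPM in IFNγ beta cells. The 8 fell to 4 without delta library 3 or beta library 2 and to 1 once the date was fitted. Immediate early and dissociation genes summed to 1490 to 1764 CPM in IFNγ delta and 469 to 1026 CPM in IFNγ beta cells, with 5 of 22 higher and 1 lower. Egr1, the immediate early factor, had 593.7, 556.8 and 389.4 CPM in IFNγ delta and 131.5, 66.61 and 180.2 CPM in IFNγ beta cells. Its control values were 538.1, 218.9 and 221.6 CPM in delta and 78.2, 131 and 427.6 CPM in beta cells, which overlapped.

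**Figure D5:**
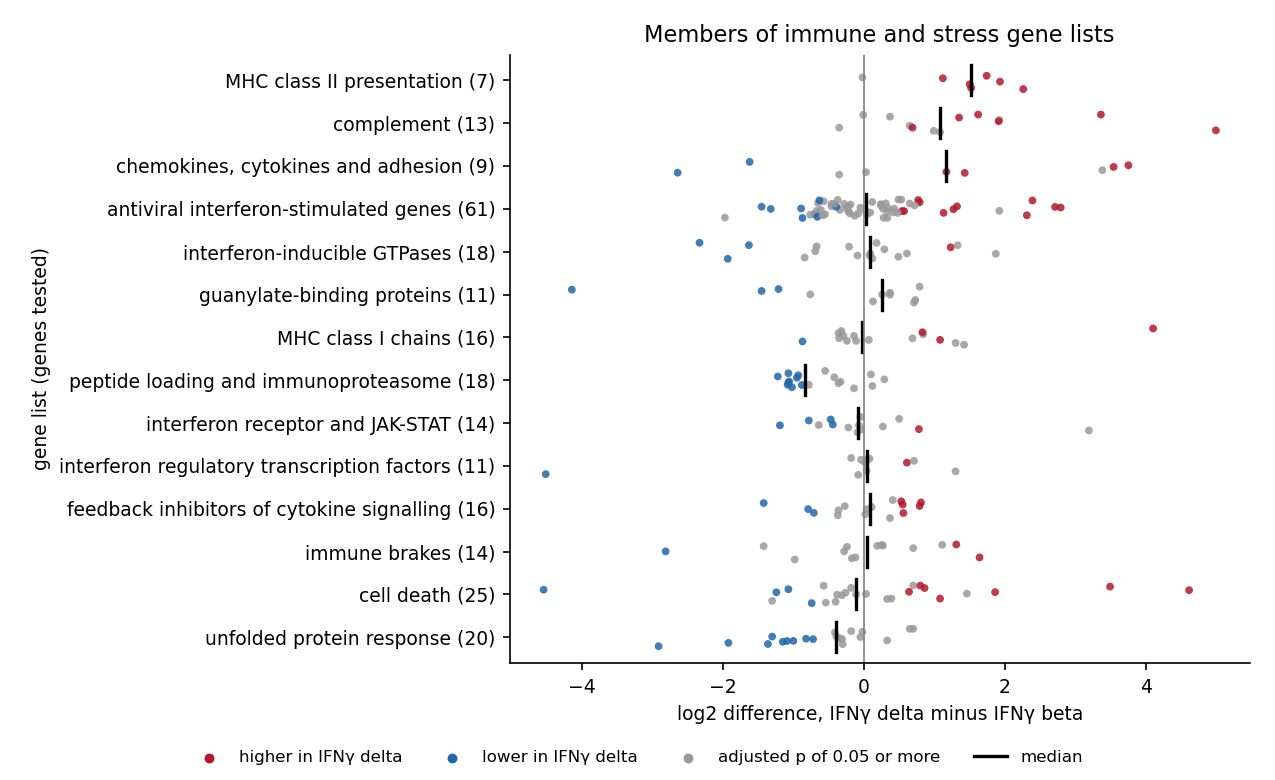
Log2 difference of IFNγ delta minus IFNγ beta cells for each tested gene of 14 immune and stress gene lists, with the number of genes tested in brackets. Red and blue points are higher and lower genes, grey points did not pass the test, and bars mark the medians, from 1.52 in MHC class II presentation to -0.83 in peptide loading and immunoproteasome.

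Genes of other pancreatic cells and of the neighbouring endocrine cells differed as well. Acinar genes were higher in IFNγ delta cells in 20 of 32 tested and lower in 1, and the 20 ranged from 5 without beta library 2 to 31 without control beta library 1. Once the date was fitted 12 were higher and 4 lower. Bhlha15, an acinar factor that secretory cells share, was the lower one, at 6.82, 8.026 and 8.604 CPM in IFNγ delta and 36.42, 32 and 43.01 CPM in IFNγ beta cells. Duct genes were higher in 7 of 12 and lower in 2. Sox9 was 544-fold higher by summed counts, with 1 count in IFNγ beta cells (95% counting interval 97.2 to 21508, exact), while the duct genes as a sum lay at 638 to 839.2 CPM in IFNγ delta and 722.9 to 777.8 CPM in IFNγ beta cells. Ppy, the hormone of PP cells, had 784.4, 1200 and 1462 CPM in IFNγ delta and 262.4, 364.2 and 457.9 CPM in IFNγ beta cells, and Pyy, its relative, 1443, 2069 and 2328 CPM in IFNγ delta and 160.8, 188 and 226 CPM in IFNγ beta cells, and the call of Ppy was lost without beta library 1. Among all genes with at least 5 CPM, Slc16a7, a monocarboxylate transporter gene, had 99.93, 113.4 and 81.13 CPM in IFNγ delta cells and 0 counts in IFNγ beta cells, at least 720-fold higher with the floor of 3 counts. Olfm4, which encodes the secreted olfactomedin 4, had 0 counts in IFNγ delta cells and 31.44, 24.89 and 39.86 CPM in IFNγ beta cells, at least 292-fold lower in delta. Whether these RNAs came from the sorted cells or from others was not tested.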

How the data were processed

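RNA of sorted cells was made into random-primed, ribosomal RNA-depleted, strand-specific libraries with the Ovation SoLo kit and sequenced as paired ends on a NextSeq 500. Alignment by the authors was with STAR 2.5.2b against GRCm38, and RSEM (version not stated) estimated gene levels. The deposited tables hold expected counts, which are RSEM's estimates and need not be whole, and TPM, FPKM and effective length per gene. Between 89.6% and 92.7% of a library's expected counts as deposited were whole. TPM values, which the authors scaled by length, ordered genes within a cell type, and FPKM was not used. Whether counting used strand, or molecular identifiers removed PCR copies, is not given in these sources, so genes that overlap others or have near-identical copies have uncertain shares of reads.

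Expected counts were rounded. All 18 libraries entered one edgeR 4.0.16 fit in R 4.3.3 with a mean per group, filterByExpr at a minimum count of 10 (17338 of 55487 genes), TMM scaling, the quasi-likelihood test and Benjamini-Hochberg adjustment at 0.05. The study fitted batch in DESeq2 1.32.0, but the labels give no batch, so the dates in the file names served as alternatives. A total of 55227 genes (99.53%) were matched to GENCODE M21, while the study names a later release. Library totals of the series were 6128845 to 11531734. Alternatives used DESeq2 1.42.0, limma 3.58.1, other scalings, filters, sets of libraries, date terms, GC offsets and leaving out each library, and results are in the closing section. Settings with protein-coding genes alone, lists under every setting and summed levels without each treated library were chosen after seeing the data.

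Induced genes were those higher with IFNγ in alpha cells. The text names genes fixed in a list, the 12 largest differences in each direction with at least 5 CPM and no overlap, up to 5 members per gene list and direction, the 10 largest differences and 10 highest levels among induced genes, and 5 with the narrowest intervals at 100 CPM or more. Of these the text gives those the results turn on. Results on some items are not reported here. The members, the 33 gene lists and the tests were chosen with earlier results of these data known. The scripts were tested on simulated data.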

Additional observations from a re-analysis of the deposited data

How the results depend on the processing

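Under alternatives other than leaving out libraries, single named genes kept their direction and side of the threshold in 3021 cases, lost the call in 228, gained it in 44 and turned round in 7. With the date as a fixed term 660 genes were higher and 464 lower in IFNγ delta cells, 3 and 7 among the induced genes, and 9 genes differed in response. In the same fit C1ra (log2 fold change -0.1), Gcgr (0.24), Icam1 (-1.21), Ido1 (1.56), Nfkbiz (-0.08) and Rsad2 (0.38) turned round without passing the threshold. Tfrc turned round with offsets for GC content (-0.61, adjusted p = 0.0269, edgeR). These offsets gave 2911 higher and 3006 lower genes, of which 2223 and 2233 were shared with the calls in the report and 6 had been called the other way. Genes differing in response numbered 4 in DESeq2, 152 without the low-count filter and 1 with the delta and beta libraries alone. At an adjusted p under 0.01 the counts were 1961 higher, 1872 lower, 2187 between control cells, and 30 higher and 9 lower among induced genes. The cause of these changes was not tested, except that the stricter threshold calls fewer genes by construction.

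Leaving out each library in turn gave 2358 to 3506 higher and 2320 to 3458 lower genes, 2684 to 3955 between control cells, 0 to 1 differing in response, and 31 to 51 higher and 9 to 18 lower induced genes. No named gene turned round, and calls were lost in 142 cases and gained in 13. Without alpha IFNγ library 2, choosing the induced genes anew gave 1798 in place of 163, without the low-count filter 990 and with DESeq2 401.

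Replicate numbers were not shown to pair the libraries. Deviations of same-numbered treated libraries correlated at -0.0135, -0.1458 and -0.1577, and no treated library correlated best with its own number. With the replicate number as a block, 3199 genes were higher and 3220 lower, 47 and 16 among the induced genes. Upper quartile scaling moved the median log2 difference of all genes to 0.14, with 3785 higher and 2538 lower.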
